A study of Komagataella phaffii CBS 7435 with 54 samples.

Results

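Glucose-limited chemostats of the yeast Pichia pastoris at a dilution rate of 0.05 per h were compared with chemostats at 0.1 per h, which is the first halving of the growth rate in the study. The arrays were chosen by their titles, and 12 of the 54 arrays of the series belong to the comparison, 6 at 0.05 per h and 6 at 0.1 per h. The 6 arrays at 0.075 per h serve as an intermediate point. All cultures were aerobic and kept at 25 °C and pH 5.85, and differed by label only in the dilution rate. The labels name strain CBS 7435, and the study's text states that its Δflo8 derivative was grown, so both groups carry the deletion of FLO8, a regulator of flocculation and filamentous growth in Saccharomyces cerevisiae. In that strain a KanMX marker replaces part of the gene and of its promoter, so both groups also carry the marker. RNA of each of 3 numbered replicates per condition was hybridized on 2 arrays with opposite dyes against 1 reference pool, a mixture of P. pastoris cells from many media and growth phases.

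In a chemostat at steady state the cells grow at the rate at which medium is replaced, so the operator sets the growth rate through the feed, and the residual glucose falls as the feed slows. In S. cerevisiae, slower growth is known to go with lower transcript levels of genes for ribosomes and with higher levels of stress response genes and of genes for other carbon sources. No table used here pairs the array identifiers with gene names or descriptions, so such groups could not be counted in these data and the probes are given by identifier. The array identifier of FLO8 is likewise not known here.

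On the 12 arrays, the culture channel was well above background at 89.9% to 98.4% of the spots. The median culture signal was between 2591 and 6611 units at 0.05 per h and between 4256 and 7988 units at 0.1 per h. The study describes duplicate chemostats, fewer than the 3 numbered replicates, so not all replicates of a condition can come from separate cultures, and the SD, n = 3 and p values refer to the numbered replicates, whose spread may be partly technical. Replicate 3 at 0.05 per h stood apart from the other two: its log2 ratios differed from those of replicates 1 and 2 with an SD over probes of 0.165 and 0.175, against 0.111 between replicates 1 and 2. At 0.1 per h the same SD was between 0.0497 and 0.0869. Both arrays of that replicate were read on the second of 2 scanners, which also read 1 other array at 0.05 per h and 1 of the 6 arrays at 0.1 per h. Without replicate 3, limma called 2578 probes at 0.05 against 0.1 per h, and 2278 of these were among the 2581 called with it.

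The halving of the dilution rate was accompanied by many small changes of transcript level. Of 5371 probes, 1615 (30.1%) were higher and 966 (18.0%) lower at 0.05 than at 0.1 per h, 2581 (48.1%) in all at an adjusted p value below 0.05 in limma. Only 13 probes (0.242%) also passed a 2-fold change, 9 of them higher (0.168%) and 4 lower (0.0745%). The median log2 change was 0.27 among the higher probes and −0.26 among the lower ones, and 0.03 over all probes. Replicates of both conditions did not overlap for 1569 of the probes called higher and 908 of those called lower, while over all probes this was so for 3141 (58.5%).

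Most called changes were well under the 2-fold criterion. Of the probes called higher, 756 (46.8%) changed by less than 1.2-fold, 742 (45.9%) by 1.2- to 1.5-fold and 108 (6.69%) by 1.5- to 2-fold. Of the probes called lower, 494 (51.1%) changed by less than 1.2-fold, 427 (44.2%) by 1.2- to 1.5-fold and 41 (4.24%) by 1.5- to 2-fold. The test called 97.7% of all 1196 probes with a change between 1.2- and 1.5-fold, all 149 with a change between 1.5- and 2-fold, and 31.1% of the 4013 with a smaller change. The median standard error of the log2 change was 0.0622, and the smallest changes called were 0.09 and −0.09. The largest called changes short of 2-fold were 0.99 and −0.97, and the smallest beyond it were 1.02 and −1.11.

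**Figure D1:**
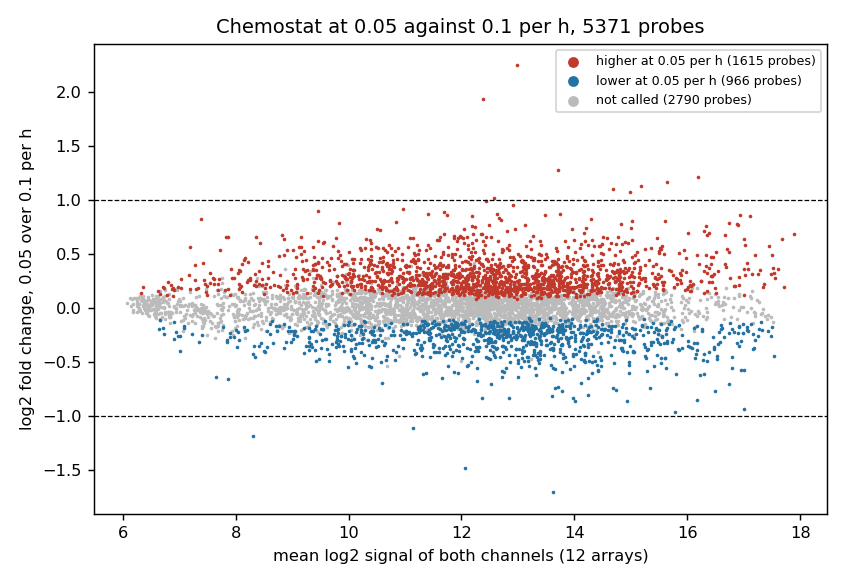
Each point is 1 of 5371 probes, with the mean log2 signal of both channels over 12 arrays on the horizontal axis and the log2 fold change of 0.05 over 0.1 per h on the vertical axis. The 1615 probes called higher and the 966 called lower cover the whole signal range, and 13 lie beyond the dashed lines at a 2-fold change.

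Pipas_chr4_0183 had the largest rise. Its log2 ratio to the pool was −1.39, −1.39 and −1.25 at 0.05 per h, against −3.65, −3.64 and −3.48 at 0.1 per h. All replicates at 0.05 per h were above all replicates at 0.1 per h, and the difference was 4.75-fold (log2 2.25, standard error 0.0977, adjusted p = 7.77e-14 in limma, n = 3 each). The probe was above background on all 12 arrays and lay below the pool in both conditions. Its identifier matched no locus tag of the reference gene table.

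Pipas_chr3_0023 rose 3.82-fold (log2 1.94, standard error 0.0968, adjusted p = 6.61e-13 in limma). The values were 2.65, 2.60 and 2.55 at 0.05 per h, against 0.71, 0.66 and 0.62 at 0.1 per h, so that it was above the pool in both conditions and the replicates did not overlap. On the arrays of the second scanner alone its log2 change was 2.13 and that of Pipas_chr4_0183 was 2.06. The other 7 probes that rose by more than 2-fold did so by 2.03- to 2.43-fold, with adjusted p values in limma of at most 6.6e-09.

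Pipas_chr4_0307 had the largest fall after normexp and LOESS, to −3.45, −3.43 and −3.23 at 0.05 per h, against −1.61, −1.73 and −1.65 at 0.1 per h. With the scanner software's log ratio its log2 change was −1.73 and that of Pipas_chr3_0517 was −1.86, and on the arrays of the second scanner it was −1.40 and that of Pipas_chr3_0516 was −1.52. After normexp and LOESS, the level of Pipas_chr4_0307 was 3.27-fold lower at 0.05 per h (log2 −1.71, standard error 0.212, adjusted p = 7.64e-07 in limma). Pipas_chr3_0516 was above the pool at 0.1 per h and below it at 0.05 per h. Its values were −0.40, −0.48 and −0.49 at 0.05 per h, against 1.08, 1.00 and 1.01 at 0.1 per h, a 2.80-fold lower level at 0.05 per h (log2 −1.49, standard error 0.138, adjusted p = 1.28e-08 in limma).

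The remaining falls beyond 2-fold, named after their values were seen, were Pipas_chr3_0517 and Pipas_chr1-3_0052. Pipas_chr3_0517 lies next to Pipas_chr3_0516 in the gene order of chromosome 3 and was 2.28-fold lower at 0.05 per h (log2 −1.19, adjusted p = 3.84e-08 in limma), with −1.42, −1.43 and −1.38 at 0.05 per h, against −0.18, −0.24 and −0.25 at 0.1 per h. It was well above background on 5 of 6 arrays at 0.05 per h and on 6 of 6 at 0.1 per h. The size of its fall moved with the background correction, with a log2 change of −1.57 at a normexp offset of 0 and of −1.86 with the scanner software's log ratio. Pipas_chr1-3_0052 was 2.16-fold lower (log2 −1.11, adjusted p = 0.000726 in limma), with −3.07, −3.10 and −3.03 at 0.05 per h, against −1.98, −1.97 and −1.91 at 0.1 per h. Its replicates did not overlap between 0.05 and 0.1 per h, although its standard error from the fit over all 9 conditions, 0.247, was the largest among these probes. With only the arrays of the second scanner, 3 at 0.05 and 1 at 0.1 per h, its log2 change was −0.87 (adjusted p = 0.374 in limma), and with only the arrays that carried the culture in Cy5 it was −1.10 (adjusted p = 0.0531 in limma).

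**Figure D2:**
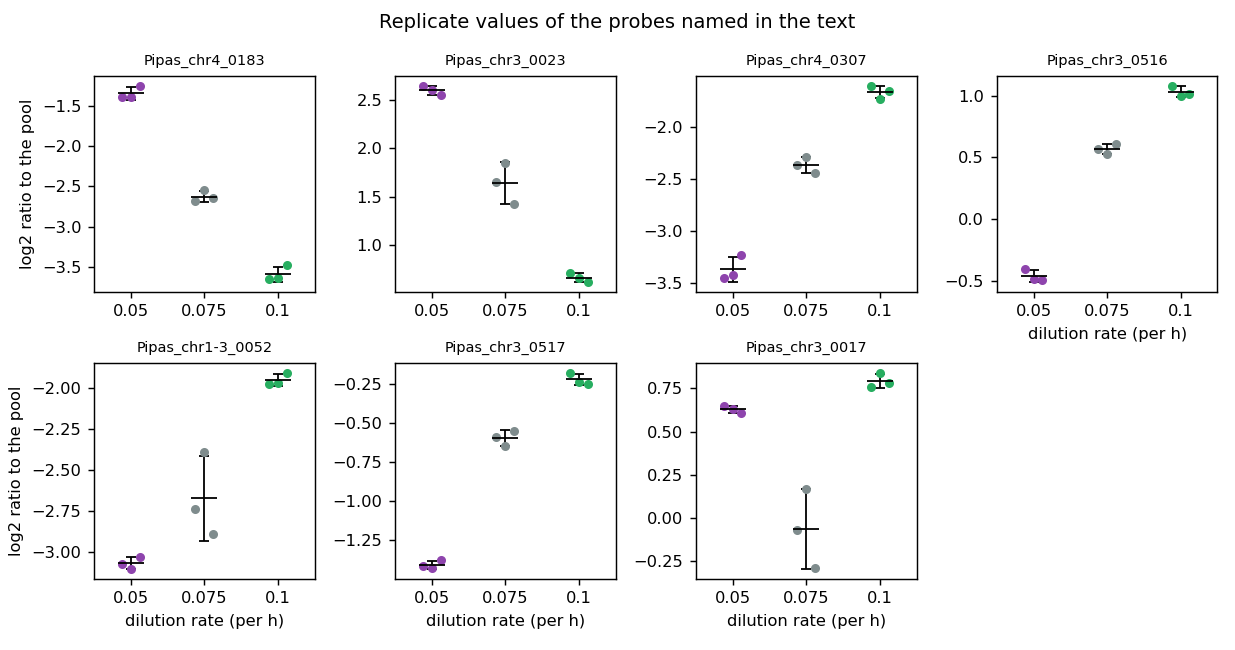
Log2 ratio to the pool of 7 probes (vertical axes, each on its own range) at dilution rates of 0.05, 0.075 and 0.1 per h, with 1 point per replicate and the mean ± SD (n = 3) in black. In 6 probes the level at 0.075 per h lies between those at 0.05 and 0.1 per h, and in Pipas_chr3_0017 it lies below both.

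The chemostats at 0.05 and 0.1 per h had arrays together on only 1 slide, with the 0.05 culture in Cy5 on its array and the 0.1 culture in Cy3. The log2 difference of these arrays, which also entered the fit that chose the probes and which differ in dye, was 2.53 for Pipas_chr4_0183, 2.06 for Pipas_chr3_0023, −1.72 for Pipas_chr4_0307 and −1.62 for Pipas_chr3_0516. All 13 probes beyond 2-fold kept their direction on this slide. Of all called probes with a value there, 1464 of 1602 called higher (91.4%) and 870 of 958 called lower (90.8%) did so. The difference there was short of 2-fold for Pipas_chr1-3_0052 (−0.84), Pipas_chr2-1_0192 (0.81), Pipas_chr4_0627 (0.70) and Pipas_chr1-1_0407 (0.69). A fit with the slide as a block and a dye term called 2287 probes, 1419 higher and 868 lower, of which 2178 were among those called without it. With the scanner as a block it called 2669, and 2482 of them were among the 2581. The arrays of the first scanner alone gave 2205 calls and those of the second alone 940, where 1 array stood for 0.1 per h and was taken to vary like the other conditions. The arrays with the culture in Cy3 gave 1563 calls and those with the culture in Cy5 1801.

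Probes were called at each step of the dilution rate, but most of those called over the full halving were not called at both. Of the 1615 called higher, 243 were called in the same direction at both steps and 545 at neither. Among the 966 called lower, these counts were 77 and 353, and over all 5371 probes they were 320 and 3388. At 0.075 against 0.1 per h, 1044 probes were called (19.4%), 550 higher (10.2%) and 494 lower (9.20%), and limma called 0 beyond 2-fold, with 1695 probes at an unadjusted p value below 0.05. At 0.05 against 0.075 per h, 1320 were called (24.6%), 934 higher (17.4%) and 386 lower (7.19%), with 3 beyond 2-fold (0.0559%). These steps share the cultures at 0.075 per h with each other, and each shares a condition with the full comparison. Leaving out single replicates moved these counts. The 1044 calls at 0.075 against 0.1 per h were 640 without replicate 1 and 617 without replicate 2 at 0.075 per h, and 660 without replicate 1 at 0.1 per h. The 1320 calls at 0.05 against 0.075 per h were 866 without replicate 1 and 826 without replicate 2 at 0.05 per h, and 705 without replicate 1 and 875 without replicate 3 at 0.075 per h.

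For the 1615 probes called higher at 0.05 per h, the mean log2 ratio to the pool was 0.063, 0.050 and 0.050 in the replicates at 0.05 per h, −0.133, −0.118 and −0.135 at 0.075 per h, and −0.260, −0.266 and −0.259 at 0.1 per h. For the 966 called lower it was −0.484, −0.507 and −0.421 at 0.05 per h, −0.332, −0.361 and −0.307 at 0.075 per h, and −0.167, −0.175 and −0.173 at 0.1 per h. The levels at the outer rates chose these probes. Those at 0.075 per h entered the choice only through the estimate of the spread, which the fit shares over all conditions. The level at 0.075 per h lay between the other two for 1437 of the probes called higher (89.0%) and for 784 of those called lower (81.2%). A median share of 0.44 of the rise (quartiles 0.25 and 0.61) and of 0.52 of the fall (quartiles 0.28 and 0.76) was present at 0.075 per h. These probes were chosen for a gap between the outer rates. A level at 0.075 per h unrelated to the dilution rate would also often fall inside that gap. No share for comparison was computed, so the shares alone do not show a gradual change.

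Among the largest changes, Pipas_chr4_0183 had 0.43 and Pipas_chr3_0023 0.50 of its log2 rise at 0.075 per h. Pipas_chr4_0307 had 0.41 of its fall there, and Pipas_chr3_0516 and its neighbour Pipas_chr3_0517 had 0.31 each, while Pipas_chr1-3_0052 had 0.65. The other 7 rises beyond 2-fold had shares from 0.29 to 0.70. None of the 13 probes beyond 2-fold passed the test for a departure of 0.075 per h from the midpoint of 0.05 and 0.1 per h, with adjusted p values in limma from 0.0948 to 0.971.

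**Figure D3:**
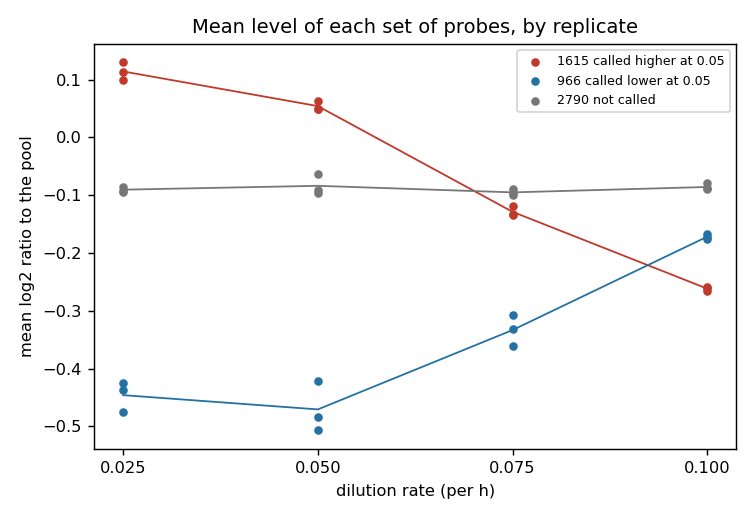
Mean log2 ratio to the pool (vertical axis) against the dilution rate in per h (horizontal axis) for the 1615 probes called higher, the 966 called lower and the 2790 not called at 0.05 against 0.1 per h, with 1 point per replicate and a line through the means. The replicates at 0.075 per h lie between those at 0.05 and 0.1 per h in both called sets, and at 0.025 per h the lower set averages −0.437, −0.476 and −0.425, within the range of the 0.05 replicates.

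A level at 0.075 per h away from the midpoint of 0.05 and 0.1 per h was called for 134 probes (2.49%), of which 14 were above the midpoint (0.261%) and 120 below it (2.23%). Below the midpoint were 25 of the probes called higher at 0.05 against 0.1 per h, 39 of those called lower and 56 of those not called. In 61 probes both steps were called and ran in opposite directions, and 51 of these had their lowest level at 0.075 per h. The count of 134 rested on single replicates: it was 3 without replicate 1 and 15 without replicate 2 at 0.075 per h, 37, 72 and 54 without replicates 1, 2 and 3 at 0.1 per h, 85 without replicate 1 at 0.05 per h, and 230 without replicate 3 at 0.05 per h. With the slide as a block it was 13.

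The strongest departure was that of Pipas_chr3_0017, named after its values were seen. It had 0.65, 0.63 and 0.61 at 0.05 per h, −0.07, 0.17 and −0.29 at 0.075 per h, and 0.76, 0.84 and 0.78 at 0.1 per h. Its level at 0.075 per h was 0.77 below the midpoint on the log2 scale (departure −0.77, standard error 0.0651, adjusted p = 1.17e-07 in limma), and the replicates at 0.075 per h did not overlap with the others but spread more widely, with an SD of 0.228 against 0.022 at 0.05 per h and 0.0419 at 0.1 per h. At 0.05 against 0.1 per h its change was −0.16 (adjusted p = 0.0764 in limma). It is the 14th gene of chromosome 3 in the reference order, and 5 of the first 25 genes of that chromosome were below the midpoint, against 114 of all 5040 genes with a locus. Of the 10 genes with the smallest p values for the departure, 4 were among those 25, a window chosen after the values were seen.

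The chemostats at 0.025 and 0.075 per h form a comparison that shares no culture with that of 0.05 and 0.1 per h. All arrays share the reference pool, however, and the fit shares its estimate of the spread. Arrays at 0.025 per h also shared slides with arrays at 0.05 and 0.075 per h, but not with arrays at 0.1 per h. The part of these slides in the overlap of calls was not tested. Over all probes, 3086 (57.5%) were called, 1812 (33.7%) higher and 1274 (23.7%) lower at 0.025 than at 0.075 per h. Of the probes called higher at 0.05 against 0.1 per h, 986 (61.1%) were also higher, 68 (4.21%) were lower and 561 were not called, with a median log2 change of 0.20. Of the probes called lower, 472 (48.9%) were also lower, 178 (18.4%) were higher and 316 were not called, with a median of −0.14. The shared probes made up 54.4% of all those higher and 37.0% of all those lower at 0.025 against 0.075 per h. Among the 2790 probes not called at 0.05 against 0.1 per h, 648 were higher and 734 lower.

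All 13 probes beyond 2-fold at 0.05 against 0.1 per h changed in the same direction at 0.025 against 0.075 per h, with adjusted p values in limma of at most 6.94e-05. Pipas_chr4_0183 was 7.69-fold higher at 0.025 than at 0.075 per h, with 0.42, 0.47 and 0.07 at 0.025 per h, against −2.68, −2.55 and −2.65 at 0.075 per h. Pipas_chr3_0516 was 3.93-fold lower at 0.025 per h, with −1.40, −1.39 and −1.42, against 0.57, 0.53 and 0.61 at 0.075 per h.

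**Figure D4:**
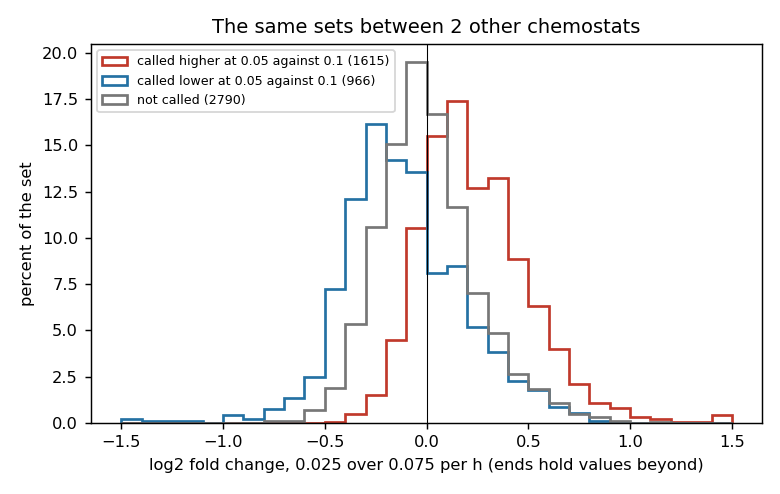
Percent of each set of probes (vertical axis) by the log2 fold change of 0.025 over 0.075 per h (horizontal axis), for the probes called higher, called lower and not called at 0.05 against 0.1 per h. The set called higher has its median at 0.20 and the set called lower at −0.14, and the sets overlap widely.

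Long genes were more often higher at 0.05 per h. A coding length was available for 5040 of 5371 probes (93.8%), from gene models of strain GS115 of which 92.2% have a length that is a multiple of 3. Of 5 length classes of about equal size, the longest held genes of 2004 bases and more, and in it 432 of 1008 genes were called higher (42.9%) and 94 lower (9.33%), with a median log2 change of 0.11. In the shortest class, up to 677 bases, 226 of 1008 were called higher (22.4%) and 187 lower (18.6%), with a median of 0.00. The share called higher increased over the 5 length classes, from short to long 22.4%, 25.5%, 28.2%, 33.0% and 42.9%. The share called lower did not fall steadily and was 18.6%, 22.3%, 21.6%, 20.6% and 9.33% in the same order.

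This pattern depended in size and shape on replicate 3 at 0.05 per h, the replicate that stood apart. The median of the longest class relative to the mean at 0.1 per h was 0.076, 0.064 and 0.177 in the replicates at 0.05 per h and 0.072, 0.069 and 0.076 at 0.075 per h, against 0.020, −0.012 and −0.009 at 0.1 per h. Without replicate 3, 359 of the longest genes were called higher and 145 lower, with a median of 0.07, and 257 of the shortest were called higher and 188 lower, with a median of 0.01. The medians of the classes between them, from short to long, were then 0.03, 0.03 and 0.02, and over all 5 classes 257, 290, 286, 302 and 359 genes were called higher. With the scanner as a block, 426 of the longest were higher and 97 lower, and with the slide as a block 367 and 86. With median centring in place of LOESS, 351 of the longest were higher and 70 lower. The shortest class then had more lower (194) than higher calls (168), as did the next class (211 and 199). At 0.025 per h the longest class had medians of 0.219, 0.203 and 0.175. RNA integrity values of the samples were not analysed here, and their part in the pattern was not tested.

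**Figure D5:**
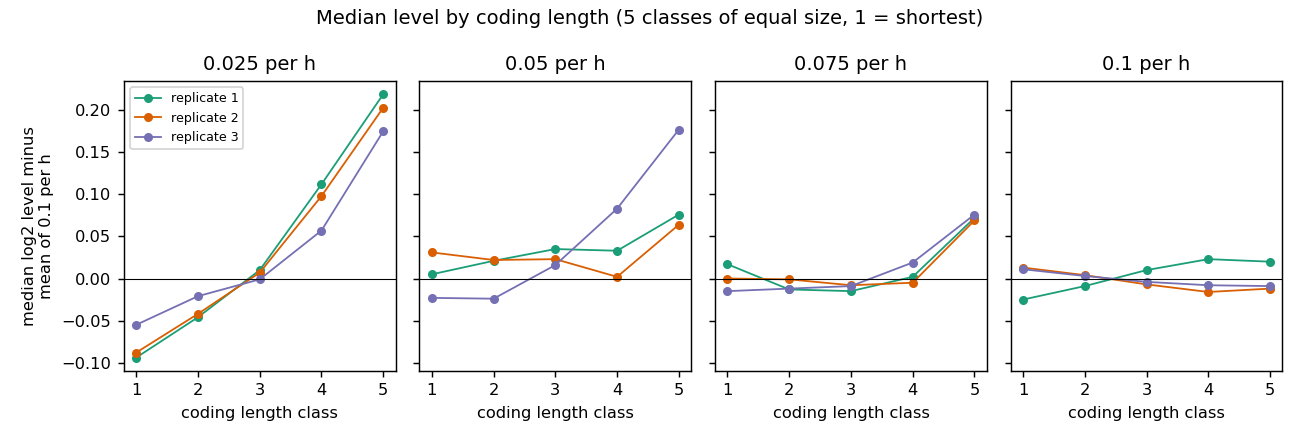
Median log2 level relative to the mean of the 0.1 per h chemostat (vertical axis) by class of coding length from shortest (1) to longest (5), with 1 line per replicate and 1 panel per dilution rate from 0.025 to 0.1 per h. At 0.05 per h the longest class lies at 0.076, 0.064 and 0.177, and replicate 3 is the highest in classes 4 and 5.

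The choice of the probes used the 0.075 per h chemostat only through the shared estimate of the spread. The probes that changed also differed in their level relative to the pool in that chemostat. Over all probes, 30.1% were called higher and 18.0% lower at 0.05 against 0.1 per h. Of 118 probes more than 4-fold below the pool at 0.075 per h, 49 were higher (41.5%) and 9 lower (7.63%). Their median log2 change was 0.20. Of 509 probes 2- to 4-fold below the pool, 217 were higher (42.6%) and 109 lower (21.4%). Of 2599 probes up to 2-fold above the pool, 868 were higher (33.4%) and 280 lower (10.8%). Of 71 probes 2- to 4-fold above the pool, 39 were higher (54.9%) and 1 lower (1.41%), with a median of 0.22. The 2068 probes up to 2-fold below the pool were the only one of 6 classes with more lower (566, 27.4%) than higher calls (441, 21.3%) and a negative median (−0.02), while the 6 probes more than 4-fold above the pool had 1 call in each direction. The probes include 60 with 30 spots each, whose PDKT or PIPA identifiers matched no locus tag. PDKT_003, PDKT_004, PDKT_005, PDKT_009, PDKT_012, PDKT_013, PDKT_015 and PDKT_016 were more than 4-fold below the pool and PDKT_017 more than 4-fold above it. Of these only PDKT_016 was called, as higher.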

How the data were processed

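The authors deposited scanner output for each 2-color oligonucleotide array, with median spot and background signals as intensities and with quality marks, without normalization. It also holds a log10 ratio per spot that, per the file headers, comes from the scanner software with background subtracted and dyes normalized. The table of log2 ratios per probe deposited by the authors was made with limma, per the labels, and 18 of its 54 columns ran as pool over culture (0 at 0.05, 2 at 0.075 and 2 at 0.1 per h), so the scanner output was used. Columns of other series' samples were 0. The chip's genome build is not given in the sources used here, so no coordinates are printed. Gene order and coding lengths come from RefSeq (assembly ASM2700v1), which matched 5040 of 5371 probes by locus tag.

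Signals were corrected with normexp (offset 50) and normalized by LOESS within arrays in limma 3.58.1 (R 4.3.3, statmod 1.5.0). The 536 control spots per array and spots with an outlier mark (0.676%) were left out, spots of a probe averaged, ratios turned to culture over pool by the labeled dyes, and both arrays of a replicate averaged. For 106 probes at least 1 of the 18 arrays gave no value and the other array of the pair was used, except for 4 probes that lacked both arrays of at least 1 replicate and were fitted without it. The pool channel of each of the 18 arrays had a correlation of at least 0.996 with the mean pool profile of the others. A model with 9 condition means was fitted to 27 replicates with 18 residual degrees of freedom and 5.38 prior ones. Then came eBayes and Benjamini-Hochberg adjustment over 5371 probes. A probe was called at an adjusted p value below 0.05. The procedure was tested on simulated data with a dye bias and the same replicate spread in every condition. The simulation held no slide, scanner or shared-culture effects, so it does not show how these affect the calls. The number of arrays limits the precision.

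The probes named by rule are the 2 largest rises and 2 largest falls among called probes that lay above background on all arrays of the condition with the higher level and had no overlap between replicates. Lists of gene functions could not be applied, since the tables used here give no descriptions. The comparison, lists and rules were chosen with earlier results of these data known. Same-numbered replicates at 0.05 and 0.075 per h deviated together (r of 0.144, 0.231 and 0.288 for replicates 1, 2 and 3), so the numbers may pair these 2 conditions. Replicates 1 and 2 of these conditions also each had a slide in common, and all arrays of replicate 3 were read on the second scanner. A pairing by number cannot be told apart from these shared slides and scanner. Alternatives covered background correction, normalization, the authors' table, outlier spots, dim probes, fewer groups in the fit, arrays entered singly with dye, slide or scanner terms, a replicate block, an adjusted p value below 0.01 and each replicate left out. The scanner terms and the splits by scanner and dye were chosen after seeing the data.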

Additional observations from a re-analysis of the deposited data

Results flagged for a closer look

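For Pipas_chr3_0017 the steps of the dilution rate ran in opposite directions. It was 1.61-fold higher at 0.05 than at 0.075 per h and 1.81-fold lower at 0.075 than at 0.1 per h. The contrast of 0.075 per h with the midpoint tests the difference of the steps and gave −0.773 on the log2 scale (adjusted p = 1.17e-07 in limma). The 3 replicates at 0.075 per h lay below all others, with an SD of 0.228. The probe was picked as the one with the smallest adjusted p value for this contrast among 5371 probes. The p value and the gap between replicates are therefore no separate support. In 61 probes both steps were called and ran in opposite directions.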

How the results depend on the processing

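The authors' table as it stands, with columns of both directions, gave 0 calls in limma for each of the 5 counts (351 unadjusted p values below 0.05 at 0.05 against 0.1 per h, 1 at 0.075 against 0.1 per h, 228 at 0.05 against 0.075 per h and 2 for the midpoint), and Pipas_chr4_0183 had −0.12 in it. With its columns turned, 2379 probes were called at 0.05 against 0.1 per h and 9 away from the midpoint. The 13 probes beyond 2-fold were 23 with the scanner software's log ratio. At 0.05 against 0.1 per h, 2581 calls were 940 on the second scanner and 1563 with the culture in Cy3. The 1044 calls at 0.075 against 0.1 per h were 621 with median centring, 622 with a slide block, 2262 with only the groups compared and 549 at an adjusted p below 0.01. The 1320 calls at 0.05 against 0.075 per h were 800 with median centring and 568 at an adjusted p below 0.01. The 134 departures from the midpoint were 204 without background correction, 49 with median centring, 347 with 3 chemostats in the fit, 432 with 4, 13 with a slide block and 9 at an adjusted p below 0.01. The cause of these differences was not tested. Leaving out 1 replicate gave between 2176 and 2578 calls at 0.05 against 0.1 per h, 11 to 16 beyond 2-fold, 617 to 907 at 0.075 against 0.1 per h, 705 to 1518 at 0.05 against 0.075 per h and 3 to 230 departures. Deviations of same-numbered replicates correlated with r of 0.089, 0.207 and 0.085 between 0.05 and 0.1 per h and of −0.117, 0.038 and 0.000 between 0.075 and 0.1 per h, while at 0.05 and 0.075 per h all 3 were above 0.1. The replicate block gave 2573, 13, 1019, 1342 and 131 calls. Of the alternative values for the 7 named probes, 162 kept direction and side of the threshold, 8 lost the call (2 of them for Pipas_chr1-3_0052 on the second scanner or with the culture in Cy5, the others in the authors' table as it stands) and 1 reversed.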

Other observations

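The changes at 0.05 against 0.1 per h were spread over all 4 chromosomes, with 31.6%, 29.0%, 29.7% and 31.2% of genes called higher and 18.2%, 17.4%, 19.5% and 19.1% called lower on chromosomes 1 to 4. Of 5036 pairs of adjacent genes, 503 were both called higher, 218 both called lower and 504 in opposite directions, and the correlation of their log2 changes across pairs was 0.073. Over all 5371 probes, 30.1% were called higher and 18.0% lower, and the pair counts that these shares would give were not computed. Genes within 25 positions of a chromosome end included 52 called higher and 32 called lower among 200, against 30.1% and 18.0% of all probes. By mean signal, 20.8% of the dimmest of 5 equal classes of probes were called higher and 12.3% lower, against 33.9% and 22.8% of the brightest class.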
